A study of Mus musculus with 16 samples.

Results

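Cultured mouse articular chondrocytes that had been given vehicle were described at rest, without a contrast to any treatment. Of the 16 RNA-seq libraries in the study, the 4 labelled as vehicle control were chosen by that label alone. The other 12 were cultures given bleomycin, doxorubicin or interleukin-1 beta (IL-1β), with 4 libraries each. All cultures were kept in medium with 10% fetal bovine serum at 37 °C in 5% CO2 and 3% O2, and 1 µg of total RNA was used for each stranded, poly(A)-selected library. In the protocol, the vehicle is named only for the IL-1β arm, as a matching volume of phosphate-buffered saline for 24 h. Whether the vehicle cultures also went through the steps of the other arms is not given in the sources used here. Those steps were hyaluronidase at 4 U/mL for 4 h, bleomycin at 50 µg/mL for 24 h and 5 days in fresh medium, or doxorubicin at 50 nM for 5 days, while IL-1β was used at 1 ng/mL for 24 h. Strain, age and sex of the mice were also not given, nor whether the replicates came from separate animals or cultures, so the spread between libraries may be technical. The treated libraries enter below only where the behaviour of a replicate number or of a single variable gene was followed through all 16 libraries.

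Articular chondrocytes are the cells of joint cartilage, and they make and maintain the matrix around them. Fibrils of type II collagen, with type XI inside and type IX on their surface, give that matrix its tensile strength, while aggrecan, held on hyaluronan by a link protein, carries the sulphated sugar chains that bind water. The master regulator SOX9 and its partners SOX5 and SOX6 drive these genes. Cartilage has no blood vessels, so its cells live at low oxygen, rely on glycolysis and use the transcription factor HIF-1. In monolayer culture, chondrocytes are known to drift towards a fibroblast-like state with type I collagen, a process called dedifferentiation.

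Values are FPKM as the authors deposited them, that is fragments per kilobase of gene and per M mapped fragments (M, mega), so levels can be compared between genes. Each mean is over the 4 vehicle libraries and is given ± SD (n = 4). Depth, estimated from the spacing of the lowest values, was 15.8 to 19.6 M fragments per library, so that 1 FPKM on a gene of 1 kilobase stood for about that many single fragments (15.8 to 19.6). The FPKM of a library summed to 413564 to 423830. Pairwise Pearson correlation of the log2 values across 12033 genes ranged from 0.985 to 0.989 over the 6 pairs of libraries, where genes are not independent replicates. A mean of at least 1 FPKM, used below as the line for a detected gene, was reached by 12033 rows, of which 11052 were protein coding. Single libraries had 12014 to 12067 such rows. The values were concentrated in few genes. The 20 most abundant rows held 12.7% of the mean FPKM, the 100 most abundant 29.3%, and 416 rows made up 50%. Protein-coding genes held 93.5 ± 0.214% of FPKM, and processed pseudogenes held 2.20%.

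All 10 markers used to check the chondrocyte label were detected. Summed, these markers held 3.02%, 3.40%, 3.89% and 3.11% of FPKM in replicates 1 to 4, and 6 of the 10 stood among the 100 most abundant rows. The lowest of them was Sox9 at 57.3 ± 1.62 FPKM, still well above the median of 9.82 FPKM over all detected genes. Type I collagen and other markers of a fibroblast-like state were also high, as given below, so both programmes were present in the same RNA. In bulk RNA, fewer cells of a type and less RNA per cell cannot be told apart.

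Sequence next to the start sites of these genes is shown first, because ribosomal protein genes, and genes of low oxygen and glycolysis, are each known for a short element there. The HIF-1 response element has the core ACGTG or GCGTG. It was searched on both strands, with overlapping matches counted, in RefSeq promoters of build GRCm38.p6, 250 bases before to 50 bases after each start. The core was present in 43.8% of all 32851 promoters and in 63.1% of those of genes detected in vehicle. It was present in 33 of 43 promoters of the hypoxia list (76.7%; 31 of its 41 listed genes matched) and in 24 of 31 of the glycolysis list (77.4%; 20 of 22 genes matched). Other lists held it about as often, with 75.0% of translation factor, 70.4% of mitosis and 68.8% of ribosomal protein promoters, or less often, with 43.8% of cartilage matrix and 34.2% of collagen promoters. Stretches of 100 bases are printed 5′ to 3′ on the strand of the gene for 4 abundant members, with the core, or its reverse complement CACGT or CACGC, in capitals. For each gene the promoter with the most cores was taken, and in it the 100 bases before the start with the most cores. The counts given for them are thus the highest found by search, not typical values. They lie at chr7:46845704-46845803 on the plus strand for Ldha, chr7:138909524-138909623 on the minus strand for Bnip3, chr10:59323133-59323232 on the plus strand for P4ha1 and chr16:36071562-36071661 on the minus strand for Fam162a.
Ldha: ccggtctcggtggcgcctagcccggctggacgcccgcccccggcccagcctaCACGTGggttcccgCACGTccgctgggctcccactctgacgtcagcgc
Bnip3: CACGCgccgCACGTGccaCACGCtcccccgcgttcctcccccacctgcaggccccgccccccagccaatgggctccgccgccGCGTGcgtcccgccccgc
P4ha1: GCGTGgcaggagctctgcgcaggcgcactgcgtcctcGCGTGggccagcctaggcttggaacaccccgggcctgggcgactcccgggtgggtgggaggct
Fam162a: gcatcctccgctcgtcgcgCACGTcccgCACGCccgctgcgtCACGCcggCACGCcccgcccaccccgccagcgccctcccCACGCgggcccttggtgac
The Ldha stretch held 3 cores, since the palindrome CACGTG counts once on each strand, and its whole promoter held 7. The Bnip3 and Fam162a stretches held 5 each. P4ha1 held 2 in its stretch and 3 in its promoter. A match of letters is a description and does not show binding.

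Messages of ribosomal proteins are known for a terminal oligopyrimidine tract, a C followed by a run of C or T at the very start of the transcript. A C followed by at least 5 C or T (a run of 6 bases), on the sense strand and within 25 bases either side of the annotated start, was present in 35.0% of all promoters and in 34.7% of those of detected genes. It was present in 47 of 77 promoters of ribosomal protein genes (61.0%; 65 of 88 genes matched), in 44.7% of collagen, 40.6% of cartilage matrix and 34.4% of translation factor promoters, and in 4 of 27 promoters of the mitosis list (14.8%). The 35 bases around the start are printed for 4 ribosomal protein genes and Rack1 with the tract in capitals, and for Rplp0, Rps7 and Rps15 without it. Where a gene had several promoters, those with the tract were taken first. They lie at chr7:45128726-45128760 on the minus strand for Rpl13a, chr7:3704026-3704060 on the plus strand for Rps9, chr9:64173372-64173406 on the plus strand for Rpl4 and chr11:98026909-98026943 on the plus strand for Rpl19. Those of Rack1 and Rplp0 lie at chr11:48800345-48800379 and chr5:115559452-115559486, both on the plus strand. Those of Rps7 and Rps15 lie at chr12:28635934-28635968 on the minus strand and chr10:80292416-80292450 on the plus strand. In Rpl4 and Rpl19 the capitals lie wholly before the annotated start, so by that annotation they are outside the transcript.
Rpl13a: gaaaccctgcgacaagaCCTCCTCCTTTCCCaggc
Rps9: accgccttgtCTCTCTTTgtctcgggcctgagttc
Rpl4: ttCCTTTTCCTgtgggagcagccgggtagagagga
Rpl19: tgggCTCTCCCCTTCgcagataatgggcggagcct
Rack1: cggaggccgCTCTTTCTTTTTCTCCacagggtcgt
Rplp0: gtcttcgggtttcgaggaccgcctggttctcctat
Rps7: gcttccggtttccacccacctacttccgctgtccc
Rps15: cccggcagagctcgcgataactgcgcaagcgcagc

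Col2a1, the chain of type II collagen (GRCm38, chr15:97975602-98004695, minus strand), was the most abundant row in each of the 4 libraries. It stood at 8163, 9054, 10625 and 8040 FPKM in replicates 1 to 4, a mean of 8971 ± 1192, and alone held 2.15 ± 0.261% of FPKM. Replicate 3 was the highest and replicate 4 the lowest. Fn1, the fibronectin gene that links cells to matrix (chr1:71585520-71653200, minus strand), came next at 4390, 4824, 4634 and 4694 FPKM. Its range overlapped that of Eef1a1, the elongation factor that brings aminoacyl-tRNA to the ribosome, at 4645, 4446, 4579 and 4565 FPKM. The lowest Col2a1 value was above every Fn1 value. Next in order were the ribosomal protein genes Rps14 at 3220 ± 227 and Rpl13a at 2656 ± 88.4 FPKM. They were followed by Sparc, a collagen-binding matrix protein, at 2622 ± 179 FPKM and Lgals1, the lectin galectin-1, at 2348 ± 150 FPKM.

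The imprinted neighbours H19, a long non-coding RNA, and Igf2, a fetal growth factor, lie on chromosome 7 and stood at nearly equal levels. H19 was at 2197, 2129, 2328 and 2141 FPKM, and Igf2 at 2112, 2245, 2204 and 2224 FPKM. Their ratio was 1.00 ± 0.0542. Thbs1, the matrix glycoprotein thrombospondin-1, was at 2121 ± 171, Mest, another imprinted gene, at 1844 ± 126, and Ldha, the enzyme that turns pyruvate into lactate, at 1576 ± 28.7 FPKM. Of the 19 neighbouring pairs among the 20 most abundant rows, 16 overlapped in range, so most of the order below Col2a1 is not fixed by these 4 libraries. The 3 separated pairs were Col2a1 from Fn1, Eef1a1 from Rps14, and Rps14 from Rpl13a.

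Some abundant rows are short or non-coding RNA entries rather than independent genes. Gm26377, annotated as a miRNA, was at 2036 ± 200 FPKM over its 108 bases, which lie inside Eef1a1 on the same strand. Gm27597, at 1494 ± 51.9 FPKM over 80 bases, lies inside Rpl19, and Gm22133, at 1318 ± 101 FPKM, lies inside Ftl1. CT010467.1, annotated as rRNA, was at 1847 ± 130 FPKM. Among the 100 most abundant, these 4 were the only rows shorter than 200 bases or annotated as miRNA, snoRNA, snRNA, rRNA or miscellaneous RNA. Long non-coding RNAs such as H19 were not counted. The 3 that overlap a gene on the same strand cannot be told apart from their host message by these values.

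**Figure D1:**
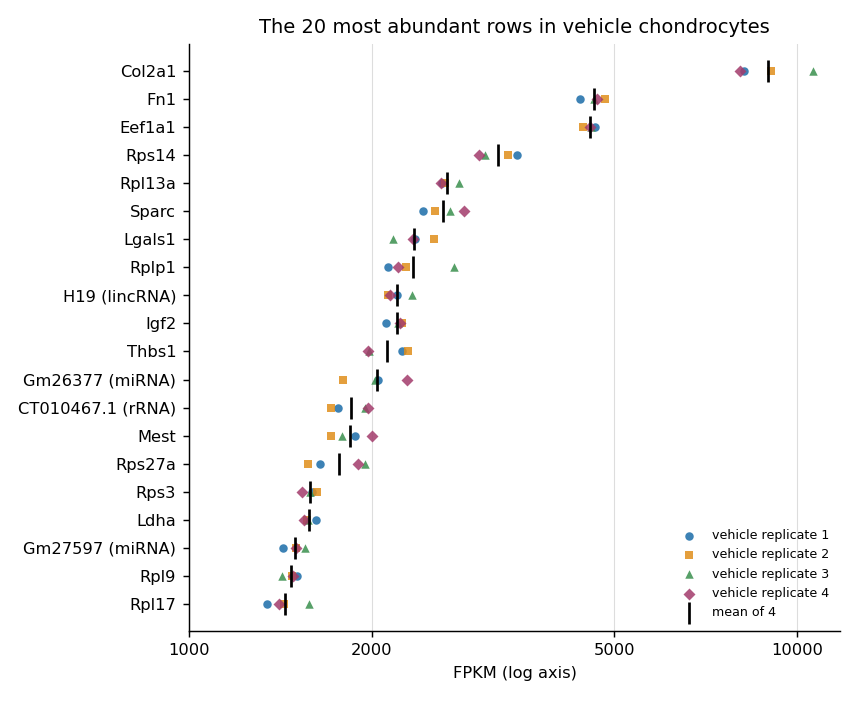
FPKM (log axis) of the 20 most abundant rows in the 4 vehicle libraries, with a symbol for each replicate and a black bar for the mean. Col2a1 (8040 to 10625 FPKM) stands apart on the right, Fn1 and Eef1a1 share the next level between 4390 and 4824, and most rows below overlap with their neighbours.

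The cartilage matrix list without collagens, of 41 genes, held 3.77%, 4.08%, 4.21% and 4.06% of FPKM, and 38 of its members were detected. It includes Fn1, also a marker of the fibroblast-like state, which alone held 1.11 ± 0.0463% of FPKM. The share is therefore not that of cartilage genes alone. Acan, the aggrecan core protein (chr7:79053483-79115099, plus strand), was at 560, 627, 722 and 570 FPKM, a mean of 620 ± 74.4. The ratio of Col2a1 to Acan lay between 14.1 and 14.7 in all 4 libraries. Hapln1, the link protein of aggrecan, was at 166 FPKM in replicate 1 and at 200 to 202 in the other 3. Comp, which binds collagen fibrils, was at 808, 893, 1141 and 896 FPKM. Cnmd, the cartilage glycoprotein chondromodulin, was at 834, 922, 1144 and 913 FPKM. Both had their lowest value in replicate 1 and their highest in replicate 3.

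Among the small leucine-rich proteoglycans, which decorate collagen fibrils, Bgn was at 589 ± 9.94, Dcn at 492 ± 47.2, Fmod at 393 and Lum at 283 FPKM. The matrilins, adaptor proteins of the matrix, ranged more widely. Matn1 was at 307, 466, 617 and 341 FPKM, a 2.01-fold range between libraries, and Matn3 was at 79.2, 93.4, 113 and 92.5 FPKM. Ucma, a secreted protein of young chondrocytes, was at 611 ± 105 FPKM. Members known from other zones or tissues went both ways. Dcn, also on the articular surface list, and Fmod, also on the tendon list, were high (above), while Vcan, Chad and Cilp were lower. Vcan, a proteoglycan of loose connective tissue, was at 16.8 FPKM, and Acan exceeded it 38.6 ± 10.1-fold. Chad was at 4.29 FPKM. Cilp, a protein of mature cartilage, was at 0.00704 FPKM, below the line of detection.

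Prg4, the lubricant of the joint surface (lubricin), was at 22.8, 18.7, 19.2 and 23.7 FPKM, which placed it at rank 3324. Of 14 genes listed for the articular surface, 12 were detected, and the list held 0.182% to 0.217% of FPKM. Besides Dcn, its highest members were Tnc at 63.0, Dkk3 at 58.6 and Cd44, the hyaluronan receptor, at 41.5 FPKM. Gdf5, a growth factor of the embryonic joint, was at 18.1 FPKM, and the transcription factors Erg and Creb5 were at 5.44 and 1.35 FPKM.

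Chondrocytes that head for bone, called hypertrophic, are known for Col10a1, Mmp13, Spp1 and Ihh. Of the 19 genes on this list, 15 were detected. Spp1, the phosphoprotein osteopontin, was at 558, 559, 424 and 516 FPKM. Mmp13, the collagenase that cleaves type II collagen, was at 175, 135, 159 and 257 FPKM, highest in replicate 4. Col10a1, the hypertrophic collagen, was at 51.1, 59.9, 51.6 and 54.4 FPKM, and Col2a1 exceeded it 166 ± 26.9-fold. Ihh, the hedgehog ligand of prehypertrophic cells, was at 0.136 ± 0.0747 FPKM and stayed under 1 FPKM in each library. Runx2, the driver of the hypertrophic and bone programmes, was at 5.84 ± 0.275, Alpl, an enzyme of mineralization, at 10.6, and Ibsp, a bone matrix protein, at 14.1 FPKM. The late bone genes Bglap and Dmp1 were at 0.300 and 0.0151 FPKM.

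Sox9 was at 57.9, 55.4, 59.2 and 56.6 FPKM with a smaller relative spread than Col2a1, Acan or Comp, genes it is known to drive. Sox6 was at 15.4 ± 0.537 and Sox5 at 6.38 ± 0.241 FPKM. Sox9 exceeded Sox6 3.72-fold, Sox5 8.98-fold and Runx2 9.81-fold. Of 37 listed transcription factors, 34 were detected. The most abundant were Atf4, of the amino acid and stress response, at 246 ± 26.6, Hif1a at 120 ± 10.4 and Xbp1, of secretory cells, at 60.1 FPKM. Hoxa10 at 45.4 and Pitx1 at 40.0, which pattern the limb, and Barx1 at 27.0 FPKM were also prominent. Those under 1 FPKM were Barx2, Gli1 and Nfatc2 (0.456, 0.192 and 0.0793 FPKM).

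**Figure D2:**
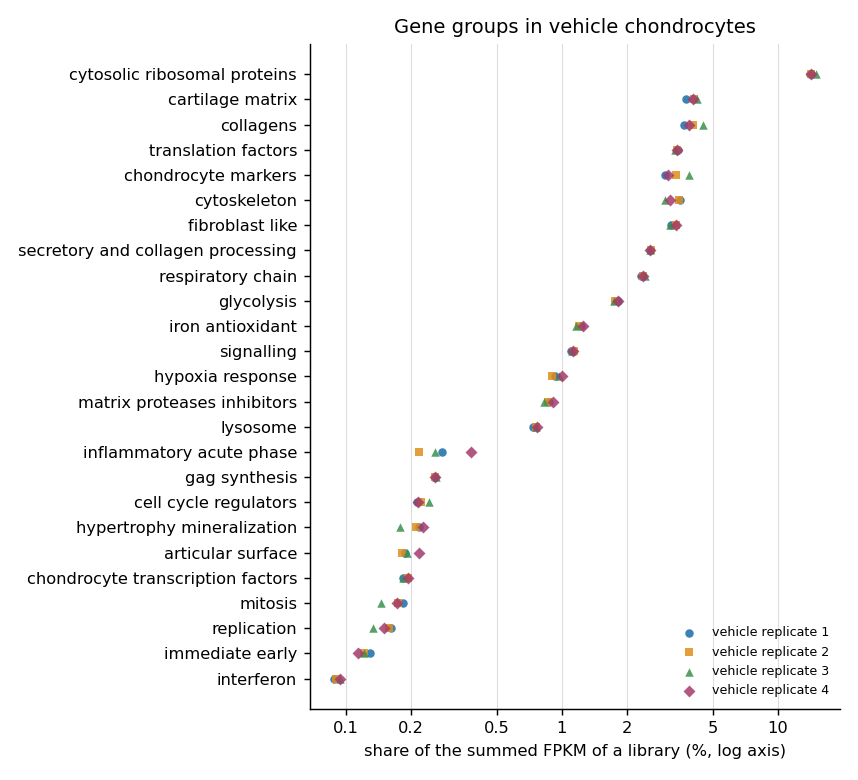
Share of the summed FPKM of each library (percent, log axis) held by 25 gene lists, with a symbol for each vehicle replicate. Cytosolic ribosomal proteins lie furthest right at 14.1% to 15.1%, and the inflammatory list spreads most between replicates, from 0.218% to 0.380%.

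Collagens as a family held 3.67%, 4.04%, 4.53% and 3.87% of FPKM, and 28 of the 44 chains listed were detected. Col2a1 alone made up 53.3 ± 2.16% of collagen FPKM. Chains II and XI together made up 61.6 ± 2.14%, type IX 9.70 ± 0.739%, types I, III and V 20.2 ± 1.81%, and type VI, which forms a mesh around the cell, 5.23 ± 0.537%. The chains of basement membrane, type IV, made up 0.198%. Cartilage chains were thus the larger part of the family in all 4 libraries.

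The 2 chains of type I collagen, the collagen of bone, skin and dedifferentiated chondrocytes, were close to each other. Col1a1 was at 1017, 1039, 1152 and 1159 FPKM, and Col1a2 at 947, 942, 1180 and 1181 FPKM. Replicates 3 and 4 were higher than 1 and 2 for both, and their ratio stayed at 1.03 ± 0.0644. Col2a1 exceeded Col1a1 8.23 ± 0.987-fold, between 6.94 in replicate 4 and 9.22 in replicate 3. Col3a1 was at 458 ± 25.8 and Col5a2 at 565 FPKM.

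The chains of a single collagen were not always at equal levels. Type IX collagen is a trimer of 3 different chains, and Col9a1, at 827, 1000, 1190 and 956 FPKM, exceeded Col9a2 3.27 ± 0.342-fold and Col9a3 2.98 ± 0.125-fold. Col11a1, at 1004 ± 77.3 FPKM, exceeded Col11a2 2.64 ± 0.345-fold. Col5a2 exceeded Col5a1 3.02 ± 0.167-fold. In each library, and for each of these pairs, the direction was the same. FPKM depends on the gene length used, so such ratios carry that choice with them. Col6a1, Col6a2 and Col6a3 were at 398, 273 and 202 FPKM, and Col6a4 was listed at 0 in all 4 libraries.

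**Figure D3:**
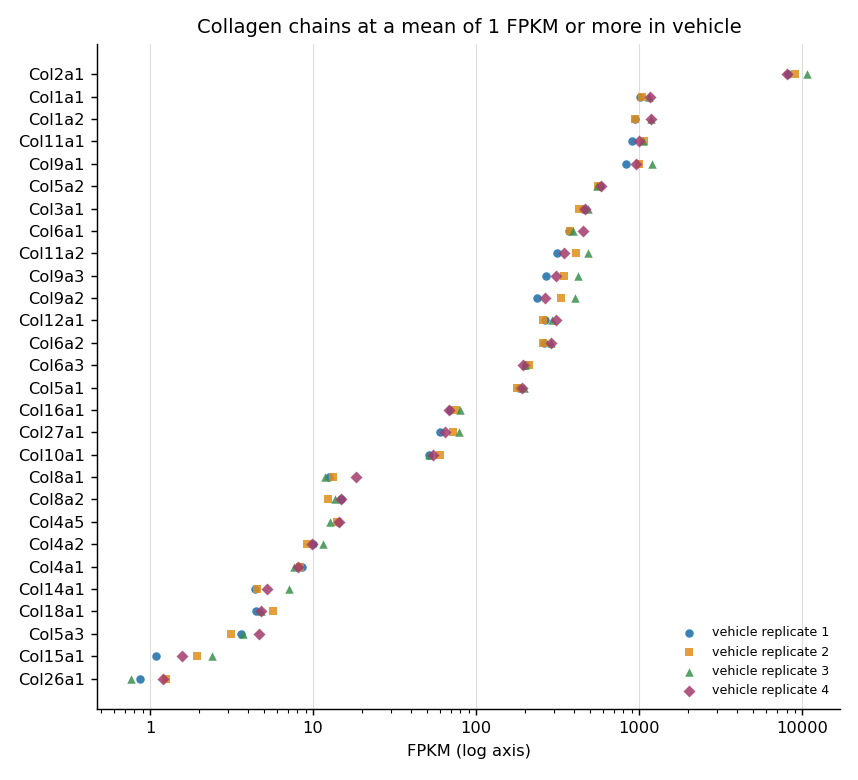
FPKM (log axis) of the 28 collagen chains with a mean of at least 1 FPKM, with a symbol for each vehicle replicate. Col2a1 lies about 8 times above Col1a1 and Col1a2 on the FPKM scale, Col11a1, Col9a1, Col5a2 and Col3a1 follow, then the type VI chains and the other type XI and IX chains, and Col10a1 lies near 54 FPKM.

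Markers of the fibroblast-like state were detected for 22 of 22 genes and held 3.22%, 3.36%, 3.18% and 3.39% of FPKM. The list shares Fn1, Col1a1 and other matrix genes with the lists above. Vim, the intermediate filament of mesenchymal cells, was at 1081 ± 112 and S100a4, a calcium-binding protein of fibroblasts, at 839 ± 48.9 FPKM. Acta2, the smooth muscle actin of contractile cells, was at 268, 264, 182 and 220 FPKM, lowest in replicate 3. Lower members were Thy1 at 14.5, Postn at 13.6 and Twist1 at 13.2 FPKM.

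Enzymes that build the matrix were present across the pathway. All 47 genes of the secretory and collagen-processing list were detected. They include Ppib, a proline isomerase, at 967 ± 50.9, P4hb, a subunit of prolyl 4-hydroxylase, at 904, Serpinh1, the collagen chaperone HSP47, at 758 ± 78.7, and Pcolce, an enhancer of procollagen processing, at 510 FPKM. Of 36 genes for the synthesis and turnover of sugar chains, 32 were detected, with a share of 0.257% to 0.262%. Papss2, which makes the sulphate donor, was at 155 ± 11.9, Ugdh, which makes a sugar precursor, at 118, Chst11, a chondroitin sulphotransferase, at 55.3, and Slc26a2, the sulphate transporter, at 39.9 FPKM. Has2, a hyaluronan synthase, was at 9.31 FPKM.

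Proteases and their inhibitors were present together, and 30 of the 35 listed were detected. The 2 most abundant members were inhibitors of matrix metalloproteinases. Timp3 was at 960 ± 54.5 and Timp1 at 650 ± 20.7 FPKM. Timp3 exceeded Mmp13 5.59 ± 1.45-fold, between 3.76 in replicate 4 and 7.29 in replicate 2. Mmp3, stromelysin-1, was at 16.2, 9.88, 14.6 and 25.5 FPKM. The aggrecan-cleaving enzymes Adamts5 and Adamts4 were at 10.6 and 1.67 FPKM, and Mmp9 was at 0.067 FPKM. Replicate 4 was the highest library for 20 of the 30 detected members, beside 24.9% of all detected genes.

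Growth factor signalling was led by Igf2. Its receptor-like partner Igf2r, which clears the ligand, was at 54.8 FPKM, Igf1 at 4.39 and Igf1r at 9.71 FPKM. Ccn2, the connective tissue growth factor, was at 659 ± 3.02 FPKM. Fgfr3, the receptor that restrains cartilage growth, was at 40.8 FPKM. Bmp4, a bone morphogenetic protein, was at 36.7, 34.2, 16.2 and 37.8 FPKM, lowest in replicate 3. Of the 57 genes listed, 49 were detected.

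Per length, the machinery of translation was the largest group. The 88 cytosolic ribosomal protein genes held 14.1%, 14.2%, 15.1% and 14.3% of FPKM, 85 were detected, and 41 stood among the 100 most abundant rows. Taken as shares of fragments, which weight genes by length, the order turned, with 7.27% for ribosomal proteins and 9.0% for collagens. The median of the detected members was 585 FPKM, beside 9.82 FPKM for all detected genes. Members ranged widely although the ribosome holds most of them in equal number. Rps14 and Rpl13a headed the list (above), while Rpl29 was at 36.7 and Rpl26 at 238 FPKM. Ribosomal protein genes have many near-identical processed pseudogenes, so the split of fragments between copies is uncertain. All 35 translation factors were detected and held 3.41% of FPKM. After Eef1a1 came Rack1, a scaffold of the small ribosomal subunit, at 1403 ± 169, Tpt1 at 1010, and Eef2, the translocation factor, at 885 ± 26.5 FPKM. Replicate 3 was the highest library for 56 of the 85 ribosomal protein genes, beside 24.4% of all detected genes.

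Glycolysis held 1.82%, 1.76%, 1.75% and 1.82% of FPKM. All 22 genes of the list were detected, and 7 stood among the 100 most abundant rows. Ldha was at 1616, 1564, 1572 and 1549 FPKM. Pkm, pyruvate kinase, was at 1260 ± 50.2, Gapdh at 861 ± 46.1, Aldoa at 777 ± 17.9, Eno1 at 770 ± 14.2, Tpi1 at 654 and Pgk1 at 612 FPKM. Ldhb, the lactate dehydrogenase chain of oxidative tissues, was at 16.4 FPKM, and Ldha exceeded it 100 ± 21.8-fold. Slc16a3, the transporter that exports lactate, was at 114 FPKM. Hexokinases were far lower, with Hk1 at 35.5 and Hk2 at 16.8 FPKM. Eno1b, at 203 FPKM, is a near-identical copy of Eno1, so those 2 values are uncertain. The nuclear genes of the respiratory chain held 2.32% to 2.43% of FPKM, led by Atp5b at 504 ± 42.1 FPKM, and 83 of 89 rows were detected.

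Genes of the hypoxia response held 0.932%, 0.905%, 0.967% and 1.00% of FPKM, and 38 of 41 were detected. These are levels only, because no culture of the study was kept at higher oxygen. Hif1a, the oxygen-regulated subunit of HIF-1, was at 121, 117, 108 and 133 FPKM. Epas1, which encodes HIF-2 alpha, was at 2.38 ± 0.241 FPKM, so Hif1a exceeded it 50.7 ± 6.54-fold, and Hif3a was at 0.295 FPKM. The hydroxylases and the ligase that mark HIF for destruction were at intermediate levels, with Egln1 at 39.3, Egln3 at 9.23 and Vhl at 14.6 FPKM. The partner Arnt was at 13.8 FPKM.

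Known HIF targets outside glycolysis include genes of mitochondria and of collagen modification. Fam162a was at 500, 454, 616 and 470 FPKM, and Bnip3, which triggers removal of mitochondria, at 272, 286, 269 and 324 FPKM. Ndufa4l2, which lowers respiratory complex I activity, was at 281 ± 20.5 FPKM. The collagen hydroxylases P4ha1 and P4ha2 were at 195 ± 2.91 and 335 ± 14.1 FPKM, and Plod2 was at 267 FPKM. Slc2a1, the glucose transporter GLUT1, was at 81.4, 121, 109 and 76.9 FPKM, while Slc2a3, its relative GLUT3, was at 0.889 FPKM. Vegfa, the angiogenic factor, was at 38.7, 36.3, 36.1 and 34.6 FPKM. Car9, a carbonic anhydrase, was at 61.5 and Pdk1, which blocks entry of pyruvate into mitochondria, at 38.1 FPKM.

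The cultures held messages of dividing cells. All 36 genes of the DNA replication list were detected, with a share of 0.163%, 0.159%, 0.133% and 0.150%, and 31 of 32 mitosis genes, with a share of 0.184%, 0.175%, 0.145% and 0.172%. Top2a, the topoisomerase that untangles replicated DNA, was at 57.6, 54.8, 41.7 and 55.8 FPKM. Rrm2, a subunit of ribonucleotide reductase, was at 84.9, 77.9, 59.8 and 78.0 FPKM. Mki67, the proliferation marker, was low at 5.03, 6.63, 2.88 and 4.73 FPKM. Replicate 3 was the lowest library for each of these 3 genes.

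Inhibitors of division stood beside these genes. Cdkn1c, the imprinted inhibitor p57, was at 171, 191, 307 and 166 FPKM, highest in replicate 3. Cdkn1a, the p53 target p21, was at 122 ± 4.55 FPKM and exceeded Cdkn2a, the locus of p16 and Arf, 19.9 ± 1.30-fold. Cdkn2a was at 6.13 ± 0.527 and its neighbour Cdkn2b, or p15, at 21.3 ± 2.21 FPKM. Trp53 was at 52.5, 53.1, 53.3 and 52.2 FPKM. Of the D-type cyclins, which start the cycle, Ccnd2 was at 86.4 ± 3.21, Ccnd3 at 72.8 and Ccnd1 at 51.1 ± 5.11 FPKM. Replication-dependent histones are known for messages that lack a poly(A) tail. The list held only 9 such rows and does not cover the whole family, so the level of the family was not assessed. Of these 9 rows only Hist1h2al, annotated as a processed pseudogene, was detected, at 4.16 FPKM.

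Of the lists plotted by share, that of inflammation spread most between the vehicle libraries. Its genes held 0.279%, 0.218%, 0.259% and 0.380% of FPKM, and 31 of 41 were detected. Saa3, an acute-phase protein, was at 115, 96.8, 155 and 256 FPKM. The neutrophil-attracting chemokine Cxcl5 was at 79.7, 47.0, 62.8 and 140 FPKM, its relative Cxcl1 at 42.3, 24.3, 31.8 and 55.5 FPKM. Lcn2, a siderophore-binding protein, was at 66.4, 42.8, 73.3 and 131 FPKM. Replicate 4 was the highest for all 4 of these genes and replicate 2 the lowest. Over the list, replicate 4 was the highest for 22 of 31 detected members and replicate 2 the lowest for 21, beside 24.9% and 22.1% of all detected genes. Il1a, Il1b and Tnf, the upstream cytokines, were listed at 0 in all 4 libraries, and Il6 was at 2.08 FPKM. Of 28 interferon-related genes 13 were detected, led by B2m at 188 FPKM.

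Markers of other cell types mostly stayed under 1 FPKM. Over 17 lists with 146 entries, 44 reached 1 FPKM, 18 reached 10 FPKM and 37 were listed at 0 in all 4 libraries. No lymphocyte, erythroid, osteocyte or hepatocyte marker reached 1 FPKM. Of 11 endothelial markers only Egfl7 did, at 2.66 ± 0.511 FPKM, while Pecam1 and Cdh5 were at 0.123 and 0.0303, and the whole list summed to 3.12 to 4.17 FPKM. Of 15 macrophage markers 4 did: Cd14 at 3.85, Lyz2 at 3.33, Cd68 at 1.41 and Mrc1 at 1.06 FPKM. The leukocyte gene Ptprc was at 0.00539 FPKM, C1qc, Fcgr1 and Itgam were listed at 0, and the list summed to 9.40 to 11.1 FPKM. Camp, at 1.02 ± 0.565 FPKM, was the only neutrophil marker at that level, with a list sum of 0.202 to 1.93 FPKM.

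The highest markers were Col1a1, Fmod and Acta2, of the osteoblast, tendon and smooth muscle lists. The osteoblast list had Col1a1 (above), Ibsp, Alpl, Runx2 and Sp7 at or over 1 FPKM, but Bglap and Dmp1 well under it. Its 10 markers summed to 1051 to 1194 FPKM, nearly all of it Col1a1. In the tendon and ligament list, 6 of 7 were detected (summed 417 to 529 FPKM), with Fmod at 393, Thbs4 at 28.9, Tnmd at 15.9 and Scx at 12.9 FPKM. In the synovial fibroblast list, 6 of 11 were detected (summed 99.7 to 143 FPKM), with Pdgfra at 31.7, Pdpn at 23.8 and Cdh11 at 22.9 FPKM. In the osteoclast list Ctsk was at 72.2 and Acp5 at 6.89 FPKM, with Calcr, Dcstamp and Atp6v0d2 at 0. In the smooth muscle and pericyte list 6 of 10 were detected (summed 287 to 366 FPKM). Acta2 led, with Cspg4 at 57.2, Pdgfrb at 17.7, Cnn1 at 9.65, Mcam at 9.38 and Des at 1.78 FPKM, while Myh11 was at 0.0856 FPKM. S100b, listed for Schwann cells and known in chondrocytes too, was at 94.0 ± 8.23 FPKM, with Mbp at 2.21 and Sox10 at 0.00465 FPKM. Of 8 adipocyte markers 4 were detected (summed 38.0 to 43.2 FPKM), with Fabp4 at 31.3 ± 3.49, Pparg at 3.93, Lpl at 3.21 and Cebpa at 2.23 FPKM, while Adipoq was at 0.104 and Lep was listed at 0. Low levels were seen for 3 of 12 skeletal muscle markers (Tnnt3 at 5.99, Acta1 at 2.19 and Mylpf at 1.27 FPKM), 2 of 7 neuron markers (Map2 at 3.93 and Tubb3 at 1.43 FPKM) and 2 of 6 keratinocyte markers (Trp63 at 3.36 and Krt10 at 2.10 FPKM). These lists summed to 8.11 to 11.1, 5.41 to 7.36 and 5.62 to 7.42 FPKM. Myh1, Myh2, Myh4, Pax7, Rbfox3 and Snap25 were listed at 0 in all 4 libraries. How much other cells contributed to genes that cartilage cells share with them was not tested.

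**Figure D4:**
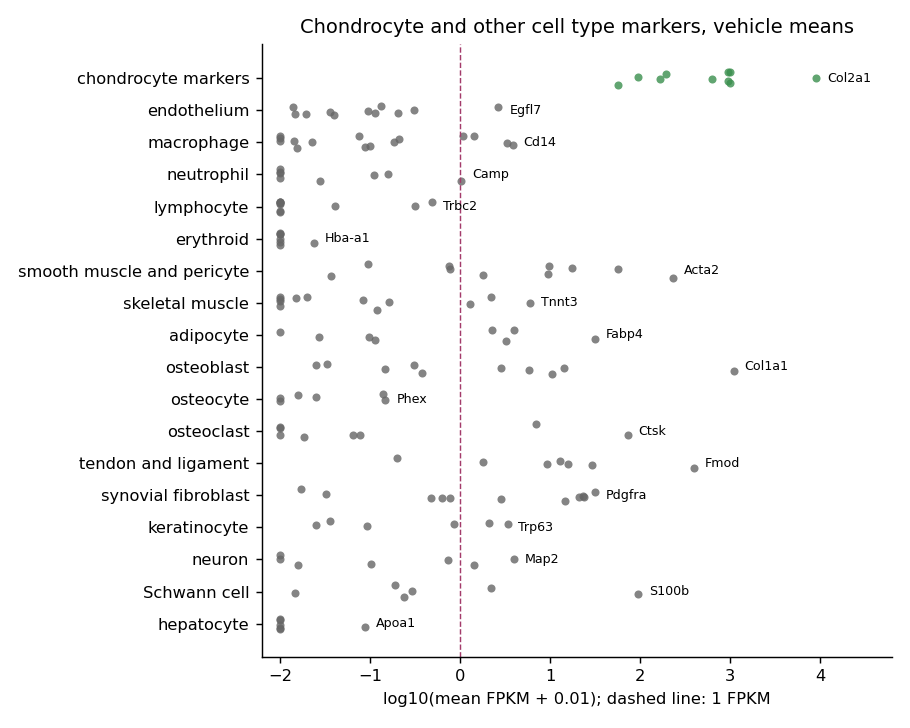
Mean over the 4 vehicle libraries, as log10(FPKM + 0.01), of 10 chondrocyte markers (green) and of the markers of 17 other cell types (grey), a point per gene, with the highest gene of each list named. All chondrocyte markers lie right of the dashed line at 1 FPKM, and most points of the other lists lie left of it.

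The vehicle libraries differed in which gene groups stood high. Replicate 3 was the highest library for 8 of 10 chondrocyte markers, 21 of 38 cartilage matrix genes and 12 of 28 collagens, beside 24.4% of all detected genes. It was the lowest for 28 of 31 mitosis genes, 26 of 36 replication genes and 26 of 38 cytoskeleton genes, beside 34.2% of all detected genes. Replicate 1 was the lowest for 8 of 10 chondrocyte markers, and for 22 of 38 cartilage matrix genes. On the log2(FPKM + 1) scale, the median deviation of chondrocyte markers from their mean over the 4 libraries was -0.19, 0.01, 0.26 and -0.05 in replicates 1 to 4, that of mitosis genes 0.10, 0.07, -0.18 and 0.03, and that of all genes 0.01, 0.01, -0.02 and 0.00. With median-of-ratios scaling, which sets the typical gene equal between libraries, replicate 3 was the highest for 9 of 10 markers and the lowest for 26 of 31 mitosis genes, beside 28.6% and 29.1% of all genes. These counts describe 4 libraries and carry no test.

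Some of these patterns recurred in the treated libraries of the same replicate number. Number 3 was the highest for 80% and 100% of the chondrocyte markers in the bleomycin and doxorubicin libraries, beside 23.1% and 25% of all genes. In IL-1β it was the highest for 40% (24% of all genes), number 2 for 10% and number 4 for 0%. Number 1 was the highest there for the remaining markers, a larger part than number 3, although in vehicle it was the lowest for 80%. In bleomycin, doxorubicin and IL-1β, number 3 was the lowest for 36.8%, 81.6% and 42.1% of cytoskeleton genes. For mitosis genes it was the lowest for 48.4%, 51.6% and 58.1%, beside 25.9%, 28.9% and 34.9% of all genes. Other parts did not recur. In bleomycin, number 4 was the lowest for 50% of cytoskeleton genes (27.0% of all genes). Number 4 was also the lowest for 50% and 70% of chondrocyte markers in doxorubicin and IL-1β (25.7% and 21.7% of all genes). The summed share of these markers was lowest in number 1 in vehicle and bleomycin, and in number 4 in doxorubicin. In IL-1β the share was nearly equal in numbers 1 to 4, at 1.053%, 1.054%, 1.064% and 1.066%. The summed share of the cytoskeleton list was lowest in number 3 in all 4 groups, and that of the proteases and inhibitors was highest in number 4 in all 4. For the inflammatory list, number 4 was highest and number 2 lowest in vehicle, bleomycin and doxorubicin, but not in IL-1β. What a number stands for is not given in the sources used here.

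Xist was at 9.29 to 11.9 FPKM and the Y-linked Eif2s3y at 11.5 to 14.4 FPKM, so all 4 libraries held both.

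Whether libraries with the same replicate number deviated together was tested in the 12 treated libraries. These did not enter the ranking of genes by level or by spread, but the lists were chosen with earlier results of these data known. limma's F test of the replicate number, with treatment group as a covariate and Benjamini-Hochberg adjustment, called 13 of 12834 genes (0.101%) at an adjusted p under 0.05, and 951 had an unadjusted p under 0.05. The called genes were Gm9619, Tmem168, Rpsa-ps10, Rps3a3, Btbd6, AI506816, Rpl26, Gm8399, Sfrp2, Esyt2, Atxn7l3, Gm10499 and Pcgf2, of which 5 are annotated as pseudogenes and 7 as protein coding. In the vehicle libraries, 9 of the 13 had their highest value under the same number as in the treated ones and 8 their lowest, beside 33.2% and 34.7% of all 12834 genes tested. Rpl26 (limma adjusted p = 0.00706) was at 305, 242, 248 and 154 FPKM in vehicle, lowest in replicate 4. The pseudogene Gm9619 (limma adjusted p = 0.000955) was at 0.136, 0, 1.47 and 9.25 FPKM. Sfrp2, a secreted modulator of Wnt signals, was at 19.7, 17.1, 26.6 and 23.1 FPKM (limma adjusted p = 0.0193). None of the genes remained called without replicate 4 or without the bleomycin libraries, where limma called 0 genes with 816 and 713 at an unadjusted p under 0.05.

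Variation between the vehicle libraries was small for most genes. The median SD of log2(FPKM + 1) over the 4 libraries was 0.12, and 90% of detected genes were at or below 0.28. Only 33 genes (0.274%) had an SD of at least 1. A highest value at least 2 times the lowest was seen in 749 genes (6.22%), and in 14 of the genes at 100 FPKM or more (2.18%). Those 14 include Gpx1, a glutathione peroxidase, at 45.2, 54.5, 169 and 166 FPKM, and Calu, a calcium-binding protein of the secretory pathway, at 705, 248, 500 and 240 FPKM. Emp1, a membrane protein, was at 294, 111, 256 and 258 FPKM.

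The 20 most variable rows were chosen by this SD, so their values are a description. They were mostly short or overlapping entries: 9 were shorter than 200 bases (1.47% of all detected genes) and 18 overlapped another gene on the same strand (24.4%). Only 7 were protein coding (91.8%). Gm27505, a row of 110 bases inside the long non-coding RNA Neat1, was at 95.6, 96.4, 0.242 and 81.7 FPKM. In 11 of the 18 overlapping rows the partner gene had its opposite extreme in the same library. How often this is so among all overlapping genes was not counted. For example, Gm50241 was at 2.73, 1.92, 31.1 and 1.60 FPKM while its partner Chtf8 was at 45.3, 42.0, 9.16 and 40.5 FPKM. Their sum was 48.0, 43.9, 40.2 and 42.1 FPKM, with an SD on the log2 scale of 0.11, beside 1.71 and 1.05 for the single rows. That pair was the clearest of the 11. For Gm26712, Pet117 and Pcdhga2 the sum had a larger SD than the partner, and for the others of the 11 a smaller one. Some partners hardly varied, such as Aopep, the partner of Mir27b, with an SD of 0.0216. Of the 20, 15 could be tested for the replicate number and 1, Gm9619, was called by limma.

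Some protein-coding genes that overlap no other gene on the same strand moved between separate levels from library to library. Ak4, a mitochondrial adenylate kinase (chr4:101419277-101466995, plus strand), was at 40.3, 5.18, 5.07 and 6.12 FPKM in vehicle. Over all 16 libraries it was at 27.6 to 40.5 FPKM in vehicle 1, bleomycin 1, doxorubicin 1 and IL-1β 2, and at 3.90 to 6.57 in the other 12, with no value between. Cdc26, a subunit of the anaphase-promoting complex (chr4:62383654-62408642, minus strand), was at 41.8, 7.82, 8.96 and 9.99 FPKM in vehicle. It was at 41.1 FPKM in IL-1β 4 and at 6.83 to 9.99 in each of the other 14 libraries. Kirrel, a cell adhesion protein, was at 20.4, 19.7, 4.47 and 21.2 FPKM in vehicle, and at 3.98 to 5.61 in bleomycin 3, doxorubicin 2 and doxorubicin 3. Crk, a signalling adaptor, was at 15.0, 14.4, 43.4 and 16.8 FPKM in vehicle. The high and low states of these 4 genes occurred in different libraries and in more than a single group. The cause was not tested.

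**Figure D5:**
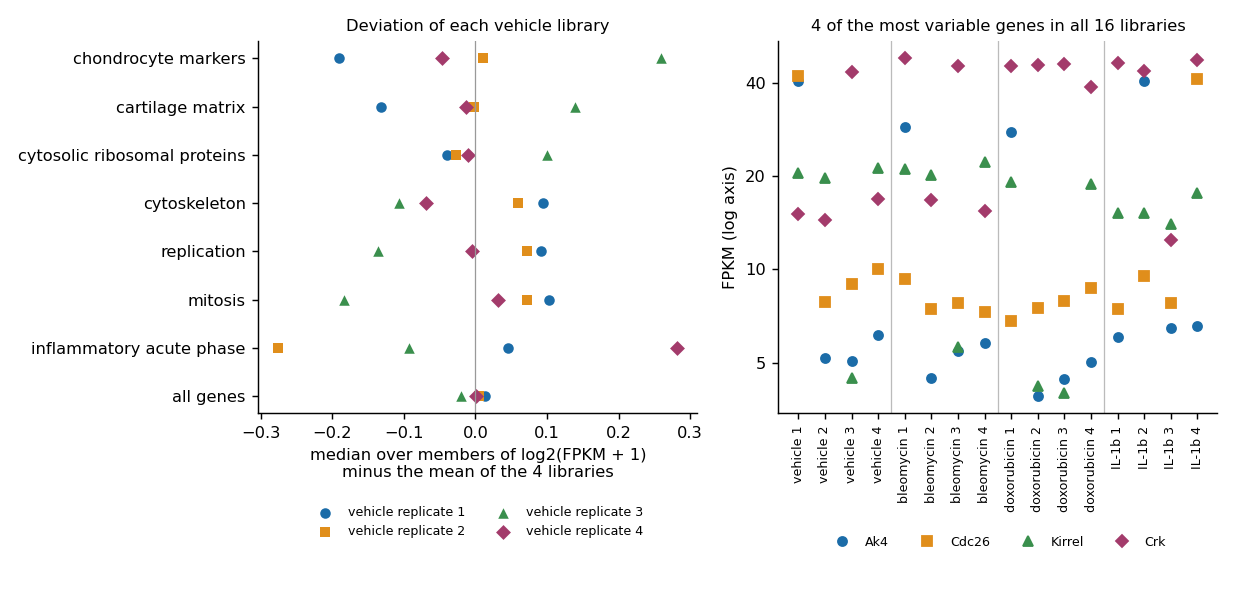
Left: median over the detected members of 7 lists, and over all detected genes, of log2(FPKM + 1) minus the mean of the 4 vehicle libraries, with a symbol for each replicate. Replicate 3 lies right for chondrocyte markers (0.26) and left for mitosis (-0.18). Right: FPKM (log axis) of Ak4, Cdc26, Kirrel and Crk in all 16 libraries, each with a high and a low level, and each level found in more than a single group.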

How the data were processed

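The deposited tables give 1 FPKM value per gene and library, computed by the authors. Trimmomatic, STAR and the build GRCm38 are named, per the submitters' processing notes, without versions. The FPKM tool and its annotation are not given in the sources used here. Each table had 55450 rows, of which 55190 identifiers matched GENCODE M21 without version, the source of lengths, types and coordinates. There were 0 mitochondrial rows, and 114 symbols were listed more than once. Counts could not be recovered, since only 62.2% to 78.3% of low values came out whole within 0.1, so no count test was run. Depth was estimated at 15.8 to 19.6 M fragments (M, mega).

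Genes were ranked by mean FPKM over the 4 vehicle libraries, and shares are of each library's summed FPKM, with no further scaling. Spread is the SD of log2(FPKM + 1). The test of the replicate number used limma 3.58.1 in R 4.3.3, kept genes that reached 1 FPKM in 4 or more of 12 libraries, and was tested on simulated data. All else ran in Python 3.11.15 with pandas 2.3.3, numpy 2.4.6 and matplotlib 3.10.9. Names were drawn from the 20 most abundant rows, the 5 most abundant members of each list, the 20 most variable rows, a fixed set of genes, and markers of other cells at 1 FPKM or more or at 0. Others were chosen after their values were seen. Members and lists were chosen with earlier results of these data known.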

Additional observations from a re-analysis of the deposited data

Results flagged for a closer look

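Each of 201 named genes and 27 list shares was checked for 1 library far from the other 3 (Dixon's criterion, a gap that takes up most of the whole range). Chance gives about 1 in 20 such results. The share seen was 7.46%, but the genes checked include the 20 rows chosen for their spread, so it cannot be compared with that rate. Most are short or overlapping rows: Commd1b was at 8.50 FPKM in replicate 2 (0.0183 or less elsewhere), Gm21982 at 9.65 in replicate 2 (0.204 to 0.216), and Gm26712 at 13.6 in replicate 3 (0.142 to 0.172). Gm27505 was at 0.242 FPKM in replicate 3 (81.7 to 96.4), Gm27671 at 7.25 in replicate 3 (0.139 to 0.187) and Gm50241 at 31.1 in replicate 3 (1.60 to 2.73). Mir27b was at 5.39 FPKM in replicate 1 (0.197 to 0.264), Snora33 at 0.122 in replicate 2 (8.07 to 8.89), and Snord100 at 7.66 in replicate 2 (0.00927 to 0.0132). Snord50a was at 6.10 FPKM in replicate 4 (0.0335 to 0.0529), Pcdhgb8 at 6.47 in replicate 4 (0.0274 to 0.0398) and Gm9619 at 9.25 in replicate 4 (0 to 1.47). Since the most variable rows were chosen for their spread, their presence here repeats that choice.

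Among longer genes, Ak4 was at 40.3 FPKM in replicate 1 (5.07 to 6.12 elsewhere). The link protein gene Hapln1 was at 166 FPKM in replicate 1 (200 to 202). Sp7, a transcription factor of osteoblasts, was at 3.83 FPKM in replicate 3 (2.51 to 2.55), and Ube2c, which marks mitosis, at 53.3 in replicate 3 (57.2 to 58.0). The share of genes for sugar chain synthesis was 0.262% in replicate 3 (0.257% to 0.258%), a difference of small size.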

How the results depend on the processing

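Shares depend on whether values are taken per length. As shares of fragments (FPKM times exon length), cartilage matrix held 6.15%, chondrocyte markers 6.68%, collagens 9.0%, ribosomal proteins 7.27%, glycolysis 1.74%, hypoxia genes 0.842%, replication 0.166%, mitosis 0.197% and inflammatory genes 0.213%. With only protein-coding genes in the total, cartilage matrix held 4.31%, hypoxia genes 1.02%, glycolysis 1.91% and ribosomal proteins 15.4%. Without Col2a1, chondrocyte markers held 1.23%, collagens 1.92% and glycolysis 1.83%. Without short and small RNA rows, a choice made after seeing the data, glycolysis held 1.83%. The other 73 alternatives for these lists moved a share by less than the SD between libraries, as did 135 of 180 for the remaining lists. Of 339 alternative ranks 265 moved by no more than the SD of the rank over libraries. Col2a1 stayed at rank 1 by fragments. Of the 20 most variable genes, 4 were shared when a mean of 10 FPKM was required. Of alternatives added after seeing the data, 1 was shared among longer protein-coding genes without overlap and 12 without genes that had a 4-fold gap.

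The replicate-number test called 28 genes with a replicate block over all 16 libraries, 0 to 9 when a replicate number was left out, 0 without bleomycin, 2 without doxorubicin and 6 without IL-1β. The other scalings and filters gave 9 to 13. The numbers were not taken as pairs, and what a number stands for is not given. Deviations of same-numbered libraries correlated at -0.0266 to 0.223 (6 of 24 pairs over 0.1, median 0.0524), beside 1 of 72 different-numbered pairs (median -0.0261). The 12 same-numbered pairs with a vehicle library were all positive, at 0.0223 to 0.223 (median 0.080). Of the 16 libraries, 12 correlated best with their own number. A shared source of same-numbered libraries was not tested.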

Other observations

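Some imprinted genes were abundant in these cells, in a list written after values had been seen. Its 20 genes held 1.93%, 1.93%, 1.98% and 1.98% of FPKM in replicates 1 to 4, and 19 were detected. Most of that share was held by H19, Igf2 and Mest, at 0.528%, 0.527% and 0.443%. After H19, Igf2 and Mest came Gnas, the stimulatory G protein subunit, at 376 ± 13.4, Rian, a non-coding RNA, at 258 ± 16.2, and Peg3, a zinc finger protein, at 241 FPKM. Grb10, which restrains insulin and IGF signalling, was at 229 ± 3.35 FPKM and Plagl1, a transcription factor, at 178 ± 27.4 FPKM. Dlk1, a membrane protein of immature cells, was at 60.5, 59.7, 70.8 and 43.8 FPKM, and its non-coding neighbour Meg3 at 122, 153, 166 and 98.3 FPKM. Both had replicate 3 as the highest library and replicate 4 as the lowest. The lowest members of the list were Airn at 4.39, Snrpn at 4.33, Magel2 at 4.28 and Nnat at 0.689 FPKM.

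Genes of iron storage and protection from oxidation were also prominent. Ftl1 and Fth1, the ferritin chains, were at 887 ± 90.3 and 833 ± 48.5 FPKM, and Mt2, a metal-binding metallothionein, was at 553 ± 88.7 FPKM. Gpx4, which reduces lipid peroxides, was at 520 FPKM. All 29 genes of that list were detected. Lysosomal genes were led by Ctsd, a protease, at 480 FPKM, and all 31 of that list were detected.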
